A study of Mus musculus with 12 samples.

Results

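The genes described here are 8 genes of voltage-gated sodium channels and their close partners in the mouse ventricle, among them Scn4b, taken as the rows of the bulk RNA-seq count table whose symbol equals a member name. They are 8 of 54949 features in the table. Scn4a, Scn7a and Scn10a encode pore-forming alpha subunits, Scn2b, Scn3b and Scn4b encode beta subunits, and Fgf13 and Gpd1l encode partner proteins. The members were picked with their values in this comparison known, so those values are given as a description and no test is drawn on for them.

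The 12 libraries came from ventricles, with the atria cut away, of wild-type male C57BL/6N mice. The study describes a mouse model of HFpEF, heart failure in which the ejection fraction is preserved: animals entered at 8 weeks of age and spent 5 weeks either on a high-fat diet with L-NAME, a nitric oxide synthase inhibitor, at 0.5 g/L in the drinking water, or on normal diet and water. The labels contradict each other on which library is which: the 6 libraries named con-1 to con-6 carry HFpEF titles and the high-fat and L-NAME treatment label, while the 6 named HF-1 to HF-6 carry control titles and the normal-diet label. In what follows a library is con-named or HF-named by its library name alone, every fold is HF-named over con-named, and which group was treated cannot be told from the labels. The design text gives 5 ventricular samples per group for bulk RNA-seq, whereas the labels hold 6, and the labels do not say that each library is a separate mouse, so the errors and p-values measure the spread between these libraries, which may be technical.

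Voltage-gated sodium channels open when the membrane depolarises and carry the inward current of the action potential upstroke in heart, muscle and nerve. The alpha subunit alone forms the pore, and beta subunits, small membrane proteins with an extracellular immunoglobulin fold, alter gating, surface density and adhesion. Cytoplasmic partners such as the fibroblast growth factor homologous factor FGF13, which binds the channel's carboxyl end, tune inactivation, and GPD1L, a relative of glycerol-3-phosphate dehydrogenase, is known from inherited arrhythmia as a modulator of cardiac sodium current.

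The stretch that sets Scn4b apart from the other measured beta subunits at the cytoplasmic end is shown first, because Scn4b had the largest fold of the members. The intracellular end of the beta-4 protein holds a short basic segment known as the open-channel blocking peptide, which can plug the open pore and whose release on repolarisation lets resurgent current flow. The last 150 coding bases of the 3 beta subunit genes are printed 5′ to 3′ on the coding strand, read from the GRCm38 genome with GENCODE M21 coding annotation. Capitals mark the stop codon and, in Scn4b, the 14 codons of the blocking segment.
Scn4b: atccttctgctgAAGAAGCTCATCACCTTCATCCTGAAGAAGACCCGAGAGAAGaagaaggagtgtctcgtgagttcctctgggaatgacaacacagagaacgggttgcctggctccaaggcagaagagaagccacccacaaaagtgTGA
Scn2b: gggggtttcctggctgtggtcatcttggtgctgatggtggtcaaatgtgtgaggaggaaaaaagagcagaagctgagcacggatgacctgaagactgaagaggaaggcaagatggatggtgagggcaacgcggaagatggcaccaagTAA
Scn3b: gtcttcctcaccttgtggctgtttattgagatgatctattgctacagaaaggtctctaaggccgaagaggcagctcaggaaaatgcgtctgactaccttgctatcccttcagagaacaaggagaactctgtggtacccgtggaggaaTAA
The Scn4b stretch lies within chr9:45149340-45150504 on the plus strand and crosses an intron. That of Scn2b fills chr9:45126155-45126304 in 1 exon, and that of Scn3b lies within chr9:40282477-40288437 and crosses an intron. The whole coding regions are 687 bases (Scn4b), 648 bases (Scn2b) and 648 bases (Scn3b) long. Aligned end to end, Scn4b shared 58.9% of aligned coding bases with Scn2b and 58.7% with Scn3b, and Scn2b shared 61.3% with Scn3b. The longest run of identical coding bases between Scn4b and either relative was 13, so reads from the coding regions are readily told apart. Exon bases outside the coding regions were not compared. None of the 8 members shares exon bases with another annotated gene.

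Scn4b was the member that differed most between the groups. In CPM, read counts scaled to a common library size with TMM factors, the con-named libraries 1 to 6 held 47.7, 48.6, 33.8, 40.5, 31.6 and 32.5, and the HF-named libraries 1 to 6 held 63.8, 80.8, 100.1, 104.8, 89.8 and 101.2. All 6 HF-named libraries lay above all 6 con-named libraries. The lowest HF-named library, replicate 1, was nearer to the highest con-named library than to the other HF-named ones. The means were 39.1 ± 7.66 CPM (SD, n = 6) and 90.1 ± 15.6 CPM (SD, n = 6), and the fitted log2 fold change was 1.20 (SE 0.13), a 2.30-fold higher level. These values rest on 507 to 2133 reads per library. With any 1 library left out, the log2 fold change lay between 1.14 and 1.28.

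**Figure D1:**
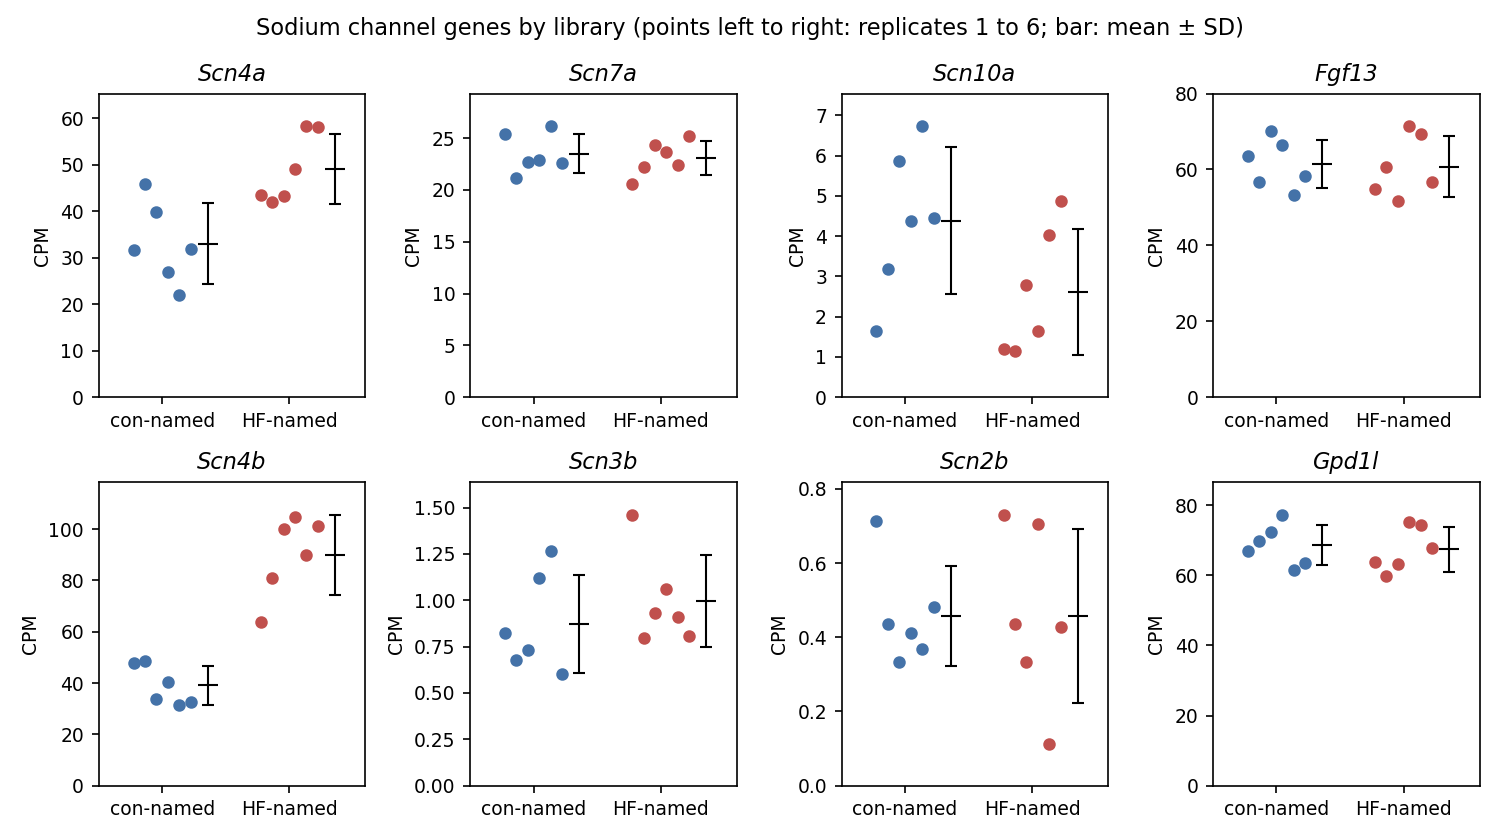
CPM of the 8 sodium channel genes in each of the 12 libraries, by group, with group mean and SD (n = 6). Scn4b separates the groups completely, Scn4a nearly so, and the other 6 genes overlap.

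The other beta subunits were at the low end of the data. Scn3b, the beta-3 gene, ran from 0.602 to 1.26 CPM (median 0.779) in the con-named libraries and from 0.797 to 1.46 CPM (median 0.920) in the HF-named ones. The groups overlapped, and the log2 fold change was 0.18 (SE 0.23) from 10 to 24 reads per library. Scn2b, the beta-2 gene, ran from 0.334 to 0.714 CPM (median 0.424) in the con-named and from 0.114 to 0.731 CPM (median 0.431) in the HF-named libraries. It did not pass the filter on low counts, so it was not tested, and its 2 to 13 reads per library do not allow a difference of moderate size to be seen. A count of 0 would allow up to 0.142 to 0.217 CPM, the value of 3 reads in these libraries, and the lowest Scn2b library, HF-named replicate 5, was below that floor.

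Scn2b and Scn4b are neighbours in the genome, and Scn4b had the higher level per length. Scn2b lies at chr9:45117782-45130070 and Scn4b at chr9:45138395-45154152, both on the plus strand, with 8324 bases between them. To see whether the surrounding genes moved as well, the 5 nearest tested genes on each side of the pair were read from the same fit. Of these 10, 1 passed an adjusted p of 0.05 (edgeR's quasi-likelihood test, Benjamini-Hochberg over all genes tested): Ube4a, a ubiquitin chain elongation factor, at a log2 fold change of 0.17 (SE 0.04, adjusted p = 0.0184). Over all genes tested, 13.3% were called, and 20.3% under library totals. The call of Ube4a was lost under library totals, where its log2 fold change was 0.05, and without the filter.

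The nearest tested gene before the pair was Mpzl3 at a log2 fold change of 0.19 (SE 0.18), followed by Cd3g, a T cell receptor complex gene, at 0.35 (SE 0.30). After the pair came Il10ra, the interleukin-10 receptor alpha chain, at -0.34 (SE 0.14), Tmprss13 at 0.82 (SE 0.41) and Fxyd6 at -0.20 (SE 0.09). Tmprss13 had the largest estimate among the neighbours but averaged 0.990 ± 0.410 and 1.71 ± 1.20 CPM, and its adjusted p was 0.204 by edgeR. The median log2 fold change of the 10 neighbours was 0.11, with a range of -0.34 to 0.82, beside a median of -0.01 over all genes tested.

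**Figure D2:**
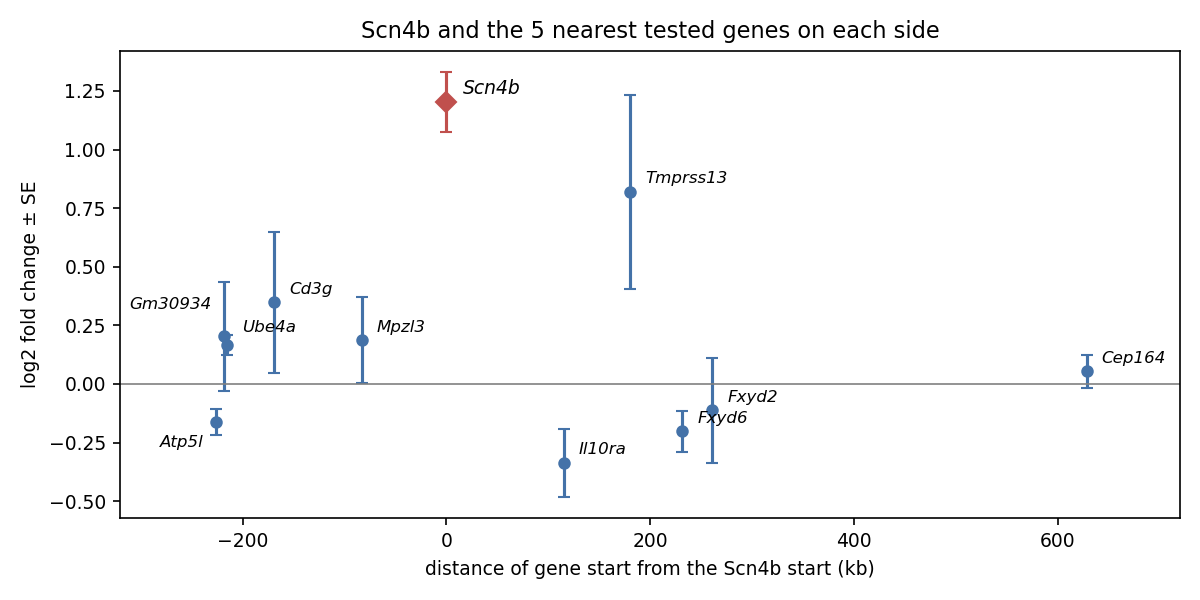
Log2 fold change (HF-named over con-named, bars SE) of Scn4b and the 5 nearest tested genes on each side against the distance of each gene's start from the Scn4b start in kilobases. Scn4b stands at 1.20 and the neighbours between -0.34 and 0.82.

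Among the alpha subunits, Scn4a, which encodes the channel of adult skeletal muscle, differed in the same direction as Scn4b but less. The con-named libraries 1 to 6 held 31.8, 45.9, 39.8, 27.0, 22.0 and 31.8 CPM, and the HF-named libraries 43.4, 42.1, 43.4, 49.0, 58.3 and 58.2 CPM. Of the HF-named libraries, 3 exceeded the whole con-named range, and con-named replicate 2 alone reached into the HF-named range. The means were 33.1 ± 8.64 and 49.1 ± 7.51 CPM (SD, n = 6 each), and the log2 fold change was 0.57 (SE 0.14), a 1.49-fold higher level. With any 1 library left out it lay between 0.47 and 0.69.

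Because Scn4a is best known from skeletal muscle, markers of that tissue were read beside it. The summed level of the 9 skeletal muscle markers was 3.13 to 5.22 CPM in the con-named and 3.06 to 4.22 CPM in the HF-named libraries. Of these markers, 7 did not pass the filter, and the myosin heavy chain genes Myh1, Myh2 and Myh4 had at most 3, 2 and 18 reads in any library. The ranges of the marker sum overlapped, and its highest value was in con-named replicate 2, the con-named library with the most Scn4a. The next highest sum, 4.42 CPM, was in con-named replicate 5, which had the least Scn4a of all libraries (22.0 CPM). Among the HF-named libraries the sum was highest in replicate 6, at 4.22 CPM, where Scn4a was 58.2 CPM. The part of skeletal muscle in the Scn4a values was not tested.

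Scn7a encodes the atypical channel Nax, known as a sodium-level sensor in glia and also found in Schwann cells. Its levels ran from 21.2 to 26.2 CPM (median 22.8) in the con-named and from 20.6 to 25.2 CPM (median 23.0) in the HF-named libraries. The ranges lay almost on top of each other, and the log2 fold change was -0.02 (SE 0.07). Its coefficient of variation, 8.08% and 7.26%, was below the median of all genes tested in both groups (10.4% con-named, and 11.0% HF-named).

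Scn10a, whose channel is best known from pain-sensing neurons and has been linked to cardiac conduction, varied most between libraries among the tested members. The con-named libraries 1 to 6 held 1.65, 3.19, 5.87, 4.37, 6.74 and 4.46 CPM, and the HF-named libraries 1.20, 1.16, 2.79, 1.65, 4.03 and 4.89 CPM. The groups overlapped widely: con-named replicate 1 sat among the low HF-named libraries, and HF-named replicates 5 and 6 sat among the con-named ones. The means were 4.38 ± 1.83 and 2.62 ± 1.57 CPM (SD, n = 6 each), the log2 fold change was -0.69 (SE 0.35), and the coefficient of variation reached 41.7% and 59.8%. These values come from 16 to 128 reads per library.

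The spread of Scn10a was set beside genes of the conduction system, the Schwann cell and glia, neuron and atrial marker lists and the list of conduction transcription factors, a step chosen after its values had been seen. Of the 35 genes tested in those lists, Cntn2, a cell adhesion gene used as a marker of Purkinje fibres, had the highest correlation with Scn10a over the 12 libraries. Its Pearson's r of log2 CPM was 0.78, Spearman's rho was 0.86, and r was 0.69 after each group's mean had been taken away. With group means taken away, the calcium channel gene Cacna1g of the conduction list was higher, at 0.75, against 0.27 before. Hcn4 of the same list ran the other way, at -0.53 over the 12 libraries and -0.29 with group means taken away. Over the 35 genes r ran from -0.62 to 0.78. These are descriptions over libraries that share depth and dissection, with no test.

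Cntn2 itself measured 4.06, 4.31, 10.4, 10.9, 12.9 and 5.36 CPM in con-named libraries 1 to 6 and 1.46, 1.81, 0.731, 2.47, 6.41 and 8.44 CPM in HF-named libraries 1 to 6. As for Scn10a, con-named replicate 5 was the highest of its group, con-named replicate 1 the lowest, and HF-named replicates 5 and 6 the highest of theirs. The log2 fold change of Cntn2 was -1.10 (SE 0.45, adjusted p = 0.112 by edgeR). Without HF-named replicate 6 the Cntn2 log2 fold change was -1.59, with an adjusted p of 0.0286 by edgeR. In the other 11 fits that left out 1 library Cntn2 was not called. Its log2 fold change there came as near to 0 as -0.89, and its adjusted p rose to 0.231 by edgeR. The glial markers Ncam1 and Sox10 also varied with Scn10a, with r of 0.74 and 0.71.

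The conduction list as a whole did not move one way. Its summed level was 34.9 to 57.2 CPM in the con-named and 38.1 to 56.4 CPM in the HF-named libraries, and 4 of its 9 genes did not pass the filter, among them Isl1 with at most 1 read. Of the 5 tested, Hcn4, the pacemaker channel, was higher at a log2 fold change of 0.36 (SE 0.10, adjusted p = 0.0252 by edgeR), and Gja5, the gap junction gene of Purkinje fibres, was lower at -0.40 (SE 0.12, adjusted p = 0.0336 by edgeR). Hcn4 lost its call under library totals and without HF-named replicate 2 or 4, and Gja5 lost its call on leaving out any of 6 libraries (con-named replicates 2, 4 and 5, HF-named replicates 2, 4 and 5). The part of conduction tissue, or of nerve and glia, in the values of Scn10a was not tested.

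Both partner genes held nearly level. Fgf13 ran from 53.3 to 70.2 CPM (median 61.0) in the con-named and from 51.8 to 71.5 CPM (median 58.7) in the HF-named libraries, with a log2 fold change of -0.01 (SE 0.08). Gpd1l ran from 61.6 to 77.3 CPM (median 68.3) and from 59.8 to 75.2 CPM (median 65.7), with a log2 fold change of -0.02 (SE 0.07). In each case the ranges of the groups almost coincided. Fgf13 and Gpd1l varied together over the libraries, with r of 0.76 and the same after group means were taken away, the highest among the 28 pairs of members apart from that of Scn4a with Scn4b. That pair had r of 0.79, which fell to 0.45 once group means were taken away.

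Of the 8 members, 7 passed the filter, and 2 of them, Scn4b and Scn4a, were called at an adjusted p of 0.05 by edgeR, both higher in the HF-named libraries. Over all genes tested, 8.28% were called higher. The groups of Scn4b did not overlap, which held in this direction for 3.41% of all genes tested and in the opposite direction for 1.95%. Since the members were chosen on this comparison, nothing is read from these counts. Both genes kept their call in all 12 fits that left out 1 library and under every other scaling, filter, block and tool tried. These fits reuse the libraries on which the genes were chosen, so the kept calls are a description and no support. The authors' deposited table gives log2 fold changes of 1.20 for Scn4b, 0.57 for Scn4a and -0.73 for Scn10a.

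The fold of every member depends on the scaling to a like degree. Under library totals in place of TMM, the median of all genes tested moved from -0.01 to -0.13 on the log2 scale. Relative to that median, Scn4b stood at 1.22 under both scalings, Scn4a at 0.59 under TMM and 0.58 under library totals, and Scn10a at -0.68 and -0.70. Scn7a and Gpd1l stood at -0.01 under both, and Fgf13 at 0.00 under both.

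**Figure D3:**
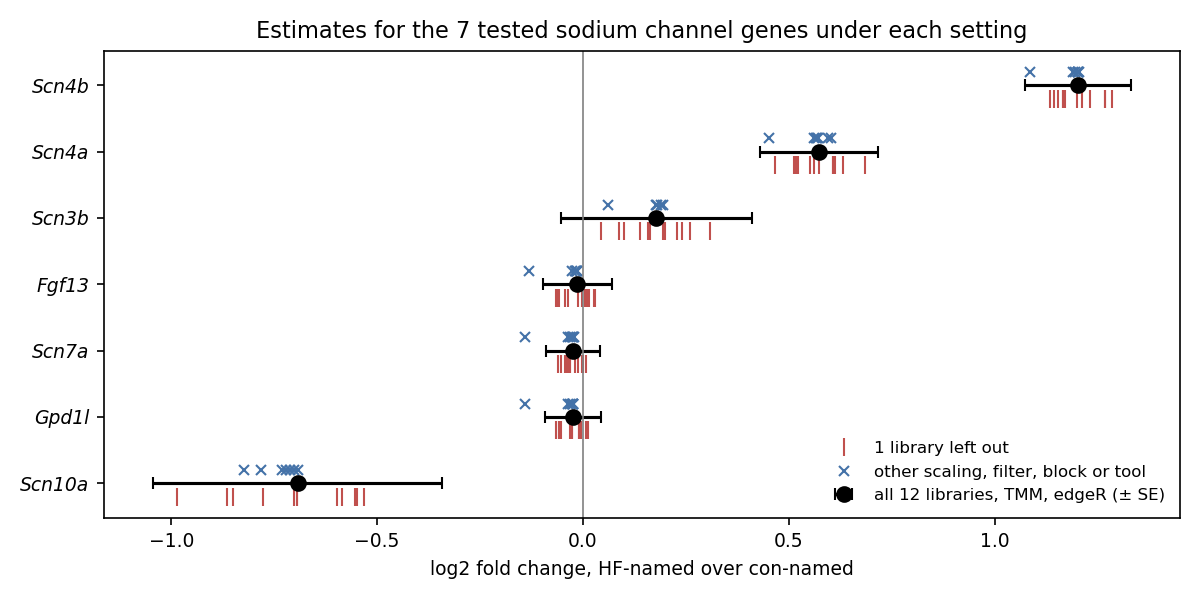
Log2 fold change (HF-named over con-named) of the 7 tested members: black points and bars give the fit with all 12 libraries and its SE, red ticks the 12 fits with 1 library left out, and blue crosses the other scalings, filters, block and tools. Scn4b and Scn4a stay to the right of 0 throughout, Scn10a to the left, and Fgf13, Scn7a and Gpd1l fall on both sides.

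To rank genes against each other, levels per length were needed, and the deposited FPKM values served for that. In the con-named libraries Fgf13 led at 15.8 ± 1.32 FPKM (SD, n = 6), with Gpd1l next at 12.7 to 15.6 FPKM (mean 14.02) and their ranges overlapping. Scn4b followed at 8.15 ± 1.63 FPKM, below Gpd1l in every library. Scn4a at 4.88 ± 1.34 FPKM overlapped both Scn4b above it and Scn7a, at 3.33 ± 0.301 FPKM, below it. Well below these lay Scn10a (0.574 ± 0.248 FPKM), Scn3b (0.166 ± 0.0535 FPKM) and Scn2b (0.102 ± 0.0277 FPKM), where each overlapped the next.

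In the HF-named libraries Scn4b stood first, at 17.3 ± 3.01 FPKM (SD, n = 6). Its range overlapped that of Fgf13 at 14.5 ± 1.40 FPKM, and Fgf13 overlapped Gpd1l at 12.7 ± 0.880 FPKM. Scn4a (6.67 ± 0.845 FPKM) and Scn7a (3.02 ± 0.258 FPKM) each stood clear of the gene above and below. Scn10a (0.314 ± 0.184 FPKM), Scn3b (0.175 ± 0.0476 FPKM) and Scn2b (0.0949 ± 0.0487 FPKM) again overlapped in turn. Scn4b thus moved from rank 3 to rank 1, and the ranks were the same with TMM-scaled counts per kilobase.

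**Figure D4:**
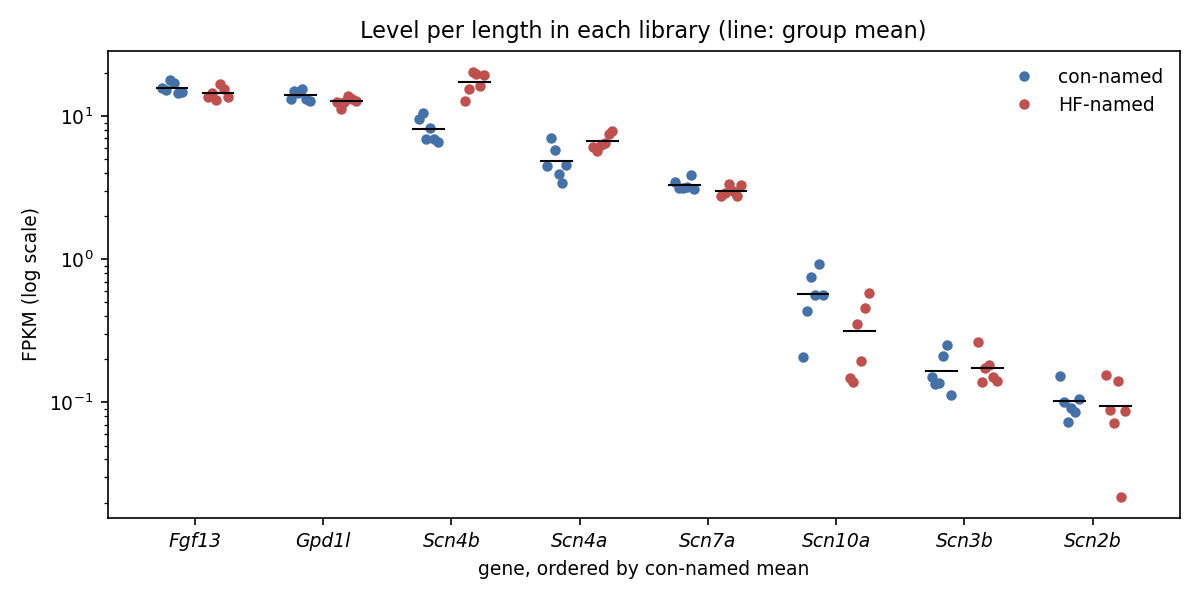
FPKM (log scale) of the 8 members in each library, genes ordered by the con-named mean, lines at group means. Scn4b goes from 8.15 to 17.3 FPKM and passes Fgf13 and Gpd1l, while the order of the other 7 genes is the same in both groups.

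Ratios within a library show the balance between subunits without any scaling between libraries. The FPKM ratio of Scn4b to Scn4a averaged 1.73 ± 0.403 (con-named) and 2.62 ± 0.469 (HF-named; SD, n = 6 each), with a small overlap, since con-named replicate 1 reached 2.12 and HF-named replicate 1 held 2.08. The ratio of Scn4b to Fgf13 was 0.517 ± 0.111 and 1.21 ± 0.242, and that of Scn4b to Gpd1l 0.582 ± 0.107 and 1.36 ± 0.214. In neither of these did the groups overlap. Scn4b made up 96.7% ± 0.817 of the summed FPKM of Scn2b, Scn3b and Scn4b (con-named) and 98.4% ± 0.809 (HF-named). Scn4a made up 54.9% ± 8.38 of the summed FPKM of Scn4a, Scn7a and Scn10a (con-named) and 66.6% ± 2.43 (HF-named). In bulk tissue, fewer cells of a type and less RNA per cell cannot be told apart, so such ratios describe the tissue and not a cell.

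The remaining genes of the pathway were read from lists. The other channel subunits, 7 alpha genes and 1 beta gene, gave 3 tested genes, of which 0 were called by edgeR, limma or DESeq2 and 1 had an unadjusted p under 0.05. Among all genes tested 13.3% were called by edgeR, and 3 genes are too few to set against that share. The other 5 were left out by the filter.

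The list of channel partners, anchors and modifiers held 32 genes, of which 30 were tested and 9 were called by edgeR, each of them higher in the HF-named libraries, beside 8.28% called higher and 5.05% called lower among all genes tested. Its median log2 fold change was 0.06, beside -0.01 over all genes. The 3 of smallest p were Slmap, a membrane protein that affects channel trafficking, at 0.54 (SE 0.06, adjusted p = 0.000384 by edgeR), the kinase gene Gsk3b at 0.33 (SE 0.06, adjusted p = 0.00363) and the protein kinase C gene Prkca at 0.24 (SE 0.06, adjusted p = 0.0136). Slmap measured 134.6 to 172.9 CPM in the con-named and 203.7 to 244.1 CPM in the HF-named libraries, with no overlap. These 3 kept their calls in all 12 fits that left out 1 library, and Prkca lost its call under library totals, at 0.12.

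The other 6 called genes of the list are a phosphatase gene (Ptpn3), genes of the intercalated disc and Z-disc (Dsp, Cdh2, Actn2), an adaptor of the membrane skeleton (Ank2) and a ubiquitin ligase gene (Nedd4), at log2 fold changes of 0.20 to 0.34. Each of these lost its call in at least 4 of the 12 fits that left out 1 library. The count of higher genes in the list then ran from 3 to 10. Under library totals the list gave 2 higher and 6 lower genes, beside 3.2% called higher and 17.1% called lower among all genes tested, so the lower count is near that share. Without the filter the count of higher genes was 4.

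Of 19 transcription factors of cardiac conduction and sodium channel genes, 18 were tested, with 1 higher and 1 lower, a share near the 13.3% called among all genes tested. Tbx20, a T-box factor of the working myocardium, was higher at a log2 fold change of 0.26 (SE 0.05, adjusted p = 0.00527 by edgeR), from 85.7 to 96.8 CPM in the con-named and from 97.6 to 120.4 CPM in the HF-named libraries. Its call was lost under library totals. Irx3, an Iroquois factor of the Purkinje network, was lower at -0.50 (SE 0.11, adjusted p = 0.00696 by edgeR), from 31.2 to 39.6 CPM and from 19.97 to 32.5 CPM, with 5 of 6 HF-named libraries below every con-named one. The median of the list was 0.04.

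The genes that varied most like Scn4b were sought among 9772 protein-coding genes of at least 5 CPM by Pearson's r of log2 CPM over the 12 libraries. They were Lgr4, a receptor of the Wnt pathway (0.96), Agps, an enzyme of ether lipid synthesis (0.95), Lrrc20 (0.94), Nol8, a nucleolar protein gene (0.94), and Kpna4, an importin gene (0.93). Much of this likeness is the difference between groups: with group means taken away r was 0.76, 0.79, 0.70, 0.61 and 0.56, and none of the 5 was then among the nearest 5. Their own log2 fold changes were 0.27 to 0.37, well under that of Scn4b.

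**Figure D5:**
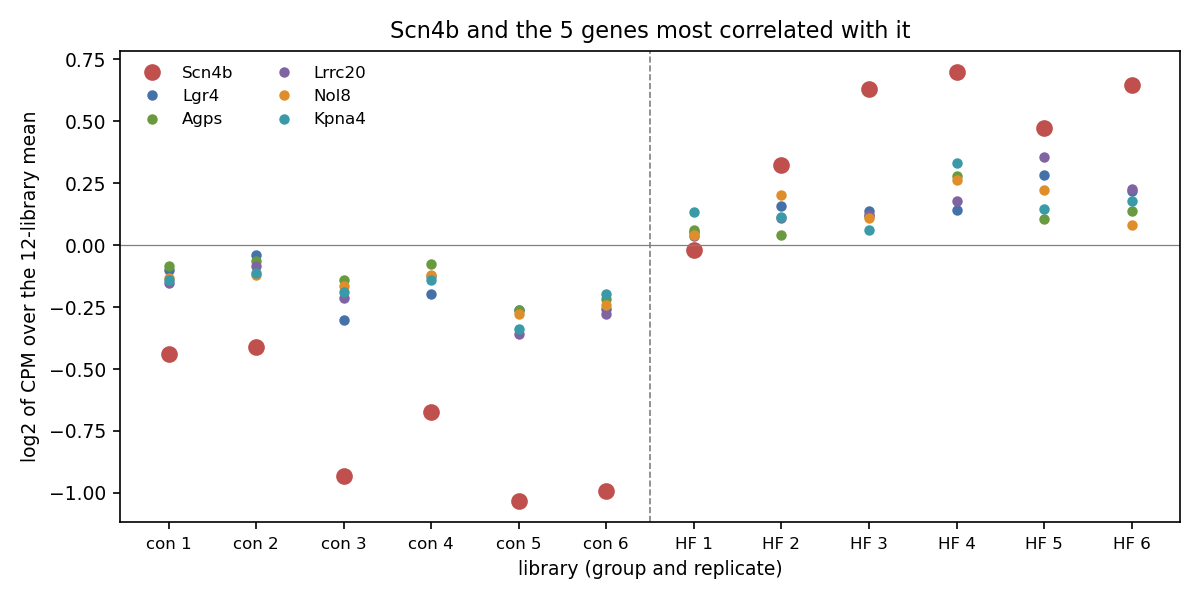
Log2 of CPM over the 12-library mean for Scn4b (large points) and the 5 genes most correlated with it, in each library. All 6 genes rank the con-named libraries below the HF-named ones, and Scn4b spans the widest range.

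For the other members of at least 5 CPM, the 2 genes of highest r were as follows. Scn4a went with Polr1b (r of 0.93, and 0.93 with group means taken away) and Rnf14 (0.91 and 0.83), and Rnf14 was itself called between the groups, at a log2 fold change of 0.21 (SE 0.05, adjusted p = 0.00703 by edgeR). Scn7a went with Tomm22 (0.88) and Pex2 (0.86), Fgf13 with Pdk2 (0.91) and Drosha (0.90), and Gpd1l with Aldh5a1 (0.85) and Abhd13 (0.85). With 12 libraries and 9772 genes searched, high values arise easily, and they are given as a description.

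Promoter composition separated Scn4b from its neighbour. Windows from RefSeq (GRCm38.p6), 250 bases before to 50 after a start, were found for 7 of the 8 members, all except Scn3b. The Scn4b window was 66.3% G and C with 26 CpG, and the Scn2b window 38.3% with 2 CpG. The median of 32851 windows was 52.7% and 7 CpG. The Scn4a window had 63.0% with 4 CpG, and the windows of Fgf13 ranged from 3 to 40 CpG. The 6 motifs searched on both strands were the core bound by TEAD factors (CATTCC), the NF-Y box (CCAAT), an E-box (CACGTG), the T-box core (GGTGTG), the binding site of GATA factors (AGATAA) and the TATA box (TATAAA). The Scn4b window held CATTCC, present in 14.7% of all windows, and CCAAT, present in 37.4%, while the Scn4a and Scn2b windows held none of the 6. Neither motif was particular to Scn4b among the members. CATTCC was also in the windows of Scn7a, Scn10a and Gpd1l, and CCAAT in that of Gpd1l and in 1 of the 4 windows of Fgf13. These letters describe the windows only.

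Total counts were 14443186 to 22048689 per library. Summed markers of working cardiomyocytes, the cells that carry most of the ventricular sodium current, were 58673 to 66807 CPM in the con-named and 60622 to 67072 CPM in the HF-named libraries, so the tissue label matched its markers, and the group ranges overlapped beside the separated values of Scn4b. Of these 8 markers, Ryr2 was called higher and 4 sarcomere genes, Myl2, Myl3, Tnni3 and Tnnt2, lower by edgeR, and Tnnt2 lost its call in 10 of 12 fits with 1 library left out. Fibroblast markers summed to 1335 to 1678 CPM in the con-named and 1069 to 1315 CPM in the HF-named libraries, without overlap, and 3 of 7 (Dcn, Gsn and Tcf21) were called lower. Pericyte and smooth muscle markers summed to 1176 to 1336 and 1359 to 1538 CPM, again without overlap. Of these 6 markers 0 were called by edgeR, and the gap, narrow beside the TMM factors (0.904 to 1.09), depends on the scaling. Endothelial markers summed to 1142 to 1496 and 891 to 1362 CPM. Of the 6 endothelial markers 2 were called lower by edgeR, Vwf at a log2 fold change of -1.04 (SE 0.15, adjusted p = 0.000792) and Kdr at -0.46 (SE 0.15, adjusted p = 0.0453). Macrophage markers summed to 157.4 to 225.9 and 133.9 to 184.8 CPM, and 2 of 5, Lyz2 and Csf1r, were called lower. Among all genes tested, 8.28% were called higher and 5.05% lower by edgeR. HF-named ranges of single genes lay wholly above the con-named range in 3.41% and wholly below it in 1.95%. With 1 library left out, Kdr lost its call in 9 of 12 fits, and Tcf21 and Csf1r in 8 each. Schwann cell and glia markers summed to 18.4 to 27.1 and 16.7 to 24.6 CPM, and neuron markers to 13.1 to 15.8 and 11.1 to 16.2 CPM. Atrial markers summed to 66.0 to 129.1 and 24.0 to 196.9 CPM, and Bmp10 had at most 1 read in any library. The part of these cell types in the values of Scn4b and Scn4a was not tested.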

How the data were processed

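Poly-A selected RNA of 12 ventricular libraries was measured. The deposited table holds raw read counts per gene and FPKM per library. The submitters' processing notes list cutadapt 1.15, HISAT2 2.0.5, HTSeq 0.9.1 and the build mm10, without tying a tool to a step, and for the annotation release and strand setting the answer is: not given in the sources used here. The deposited FPKM equal counts divided by the library total and 1 length per gene, which matched the exon bases of GENCODE M21 within 0.5 base for 97.2% of 32909 genes and for all 8 members. The authors' deposited comparison lists, per gene, a mean signal of each group (scaled counts), a log2 fold change and p-values.

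Groups follow the library names in the descriptions, for the reason given above. Genes passing edgeR's filterByExpr (15114 of 54949) received TMM factors. The test was the quasi-likelihood test of edgeR 4.0.16 (with R 4.3.3 and limma 3.58.1), two-sided, on group alone, and p-values were adjusted by Benjamini-Hochberg over all genes tested. Of these genes 2016 were called at an adjusted p of 0.05, 1252 higher and 764 lower in the HF-named libraries. CPM are TMM-scaled, likeness used log2 CPM with a prior count of 2, and the depth sets a floor of 3 reads, which covers counting error only. The rule for naming genes took all members, the leading called genes by p of each list other than the marker lists, the 3 nearest tested genes on each side of the Scn2b and Scn4b pair, the genes of highest r with each member and the 2 most abundant of each marker list. Of the last, the text gives those that a result turns on. Other genes named, such as Cntn2, Gja5, Ryr2 and Vwf, were chosen after their values were seen. The members and lists were chosen with earlier results of these data known. Some genes of the lists are not reported here by name.

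Alternatives were RLE size factors or library totals, no filter, at least 1 CPM in 6 libraries as the filter, a replicate block, limma-voom, DESeq2 1.42.0 and each library left out in turn. Simulated counts for this comparison, over 14941 genes, gave a recovery of 26% at a true fold of 1.25, 62% at 1.5, 94% at 2 and 98% at 4, and 11 of 151 calls were false.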

Additional observations from a re-analysis of the deposited data

Results flagged for a closer look

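In 138 groups of 6 libraries checked for a library far from the others, 8 were set apart, about as many as chance gives at 1 in 20, and none concerned the 8 members. Con-named replicate 5 was far above its group in Dkk3, an atrial marker (4.68 CPM), in the summed Schwann cell and glia markers (27.1 CPM) and in the summed fibroblast markers (1678 CPM). It also had the highest Scn10a and Cntn2 of all libraries. Con-named replicate 6 was the lowest of its group in Mylpf, a skeletal muscle marker (0.602 CPM), and the highest in Tmprss13, a neighbour of Scn4b (1.81 CPM). HF-named replicate 3 was the highest of its group in Fabp4 (624.7 CPM), an endothelial marker. Con-named replicate 2 was the lowest of its group in the summed working cardiomyocyte markers (58673 CPM) and in Tnni3, one of them (3102 CPM).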

How the results depend on the processing

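Scn4b and Scn4a stayed called and higher under every alternative run, which is a description only, since they were chosen on these values. Under library totals 483 genes were called higher and 2582 lower, with 2 higher and 6 lower partners, 0 higher and 2 lower transcription factors and 2 neighbours called. Abcc9 (-0.0088), Atp2a1 (-0.059) and Cdh19 (-0.10) changed sign there. Without a filter, 4 partners were called higher and 0 neighbours were called. DESeq2 called 2 transcription factors higher and 2 neighbours. Replicate numbers did not pair the libraries: same-numbered libraries had correlated deviations of -0.16 to 0.09, and 3 of 12 correlated best with their own number. With the replicate number as a block, 748 genes were called higher and 383 lower, 3 partners higher, 0 neighbours, and 1 member lower, Scn10a at -0.78, and Ube4a and Gja5 lost their calls. Of the 5 genes most like Scn4b, 0 remained after taking group means away and 3 by Spearman's rho. Leaving out each library gave 836 to 1581 genes higher and 500 to 969 lower (500 without HF-named replicate 4), 3 to 10 partners higher and 0 to 1 lower, 1 to 2 transcription factors higher and 1 to 2 lower, 1 to 2 neighbours and 0 to 1 other subunits called. In these fits Fgf13 ranged from -0.065 to 0.029, Gpd1l from -0.065 to 0.013, Scn7a from -0.061 to 0.0062, Atp2a1 from -0.046 to 0.13 and Cdh19 from -0.092 to 0.10. The causes of these shifts were not tested. Depth limits Scn2b, Scn3b and Scn10a, at 2 to 128 reads per library.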
